A study of Mus musculus with 2 samples.

Results

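The mitochondrial ribosomal RNAs of mouse, the 12S rRNA (mt-Rnr1) and the 16S rRNA (mt-Rnr2), were examined for sites crosslinked to LRPPRC, on the strand that has the rRNA sequence and on the strand facing it. A site was counted when it shared at least 1 nt with the annotated body of either gene. Of the 552 sites listed for the experimental sample, 48 lay on the mitochondrial genome and 15 of these lay at an rRNA. On the rRNA strand there were 6 sites, of which 1 lay in mt-Rnr1 and 5 in mt-Rnr2. On the opposite strand there were 9 sites, of which 5 faced mt-Rnr1 and 4 faced mt-Rnr2.

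LRPPRC is a pentatricopeptide repeat protein that binds mitochondrial RNA and is best known for keeping mitochondrial mRNAs stable, together with its partner SLIRP. The 12S rRNA forms the core of the small subunit of the mitochondrial ribosome, which reads the mRNA, and the 16S rRNA forms the core of the large subunit, which joins amino acids. Both are transcribed from the heavy-strand promoter within a precursor in which they alternate with tRNAs, and excision of the tRNAs frees them. RNA from the opposite strand of this region carries no annotated rRNA, mRNA or tRNA inside the rRNA genes.

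The samples were mouse embryonic fibroblasts (MEFs), cultured cells from embryos of Lrpprc–FLAG transgenic mice. By the labels, FLAG-tagged LRPPRC was induced in them with 2 µg/ml doxycycline for 72 h. The methods give this induction directly after a line of HeLa cells and name no inducible system for the MEFs. The labels gave these cells and this induction to the 1 experimental and the 1 control sample alike, and did not state what the control lacked. In PAR-CLIP, 4-thiouridine built into new RNA is crosslinked to a bound protein by ultraviolet light, the protein is recovered with a FLAG antibody, and T-to-C changes in the reads mark the crosslinks. The control sites were not analysed here, and with 1 library there were no replicates, no spread between replicates and no test. The list gave no level for any gene, so the labelled cell type was not checked against markers. It also gave no read depth for any site, so a stretch outside the sites may have been unbound or too thinly read. Positions are those of mm10, and rRNA positions count from 1 at the 5′ end of each rRNA.

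Sequences are given for the 9 sites that face a site on the other strand, some of which also reach within 50 nt of an rRNA end. Each is the GRCm38 mitochondrial sequence of RefSeq as RNA, read 5′ to 3′ on the strand of the site. Capitals mark the bases that face a site on the other strand, so a capital stretch lay in sites on both strands. The first pair lies at the 3′ end of the 12S rRNA, and its plus-strand member is the only same-strand site of that rRNA.
12S same-strand site, chrM:908-1000, plus strand: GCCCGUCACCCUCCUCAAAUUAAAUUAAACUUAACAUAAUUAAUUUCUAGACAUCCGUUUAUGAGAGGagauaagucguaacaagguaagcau
12S opposite-strand site, chrM:901-975, minus strand: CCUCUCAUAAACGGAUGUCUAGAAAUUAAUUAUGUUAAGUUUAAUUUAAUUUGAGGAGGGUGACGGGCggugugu

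At the 5′ end of the 16S rRNA, 1 minus-strand site faced 2 plus-strand sites that were separated by 6 nt. Its 6 lower-case bases are that gap.
16S same-strand site, chrM:1121-1269, plus strand: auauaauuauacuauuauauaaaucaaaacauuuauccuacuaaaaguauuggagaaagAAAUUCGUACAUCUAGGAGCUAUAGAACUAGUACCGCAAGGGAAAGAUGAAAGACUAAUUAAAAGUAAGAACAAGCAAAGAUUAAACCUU
16S same-strand site, chrM:1276-1404, plus strand: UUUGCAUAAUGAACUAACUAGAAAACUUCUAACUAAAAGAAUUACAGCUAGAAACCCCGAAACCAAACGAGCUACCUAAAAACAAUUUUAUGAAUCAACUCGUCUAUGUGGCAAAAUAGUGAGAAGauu
16S opposite-strand site, chrM:1180-1401, minus strand: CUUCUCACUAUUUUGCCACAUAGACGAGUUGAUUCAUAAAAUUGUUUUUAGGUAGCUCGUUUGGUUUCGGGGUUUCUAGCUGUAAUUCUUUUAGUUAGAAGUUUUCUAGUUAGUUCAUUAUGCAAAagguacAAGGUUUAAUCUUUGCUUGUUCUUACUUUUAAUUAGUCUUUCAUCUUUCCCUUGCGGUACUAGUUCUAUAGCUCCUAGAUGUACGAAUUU

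Further along the 16S rRNA, a site of each strand met at a single base, and in another place a minus-strand site lay wholly within the span of a plus-strand site. The minus-strand site at 2267-2341 had the highest U share of all 15 sites.
16S same-strand site, chrM:1507-1750, plus strand: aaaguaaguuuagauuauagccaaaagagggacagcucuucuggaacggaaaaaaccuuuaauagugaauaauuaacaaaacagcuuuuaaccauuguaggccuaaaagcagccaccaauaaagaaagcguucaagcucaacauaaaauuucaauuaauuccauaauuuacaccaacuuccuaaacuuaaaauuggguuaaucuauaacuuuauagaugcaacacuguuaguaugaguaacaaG
16S opposite-strand site, chrM:1750-1873, minus strand: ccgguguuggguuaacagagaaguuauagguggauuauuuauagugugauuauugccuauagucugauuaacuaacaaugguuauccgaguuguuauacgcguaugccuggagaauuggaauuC
16S same-strand site, chrM:2218-2362, plus strand: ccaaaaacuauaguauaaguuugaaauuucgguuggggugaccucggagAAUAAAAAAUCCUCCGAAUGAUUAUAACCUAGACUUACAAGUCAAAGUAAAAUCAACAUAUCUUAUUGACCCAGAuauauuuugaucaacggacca
16S opposite-strand site, chrM:2267-2341, minus strand: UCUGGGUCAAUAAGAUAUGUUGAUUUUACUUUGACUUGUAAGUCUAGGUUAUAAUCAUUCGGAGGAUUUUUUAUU

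The strand that carried the sites differed between the rRNAs. In mt-Rnr1 (ENSMUSG00000064337.1, chrM:70-1024, plus strand, 955 nt), 93 bases lay in the same-strand site, a share of 9.74% (95% Wilson interval 8.02 to 11.8%). On the strand facing mt-Rnr1, 664 bases lay in sites, a share of 69.5% (66.5 to 72.4%). In mt-Rnr2 (ENSMUSG00000064339.1, chrM:1094-2675, plus strand, 1582 nt), the order was the other way round, with 813 bases (51.4%, 48.9 to 53.8%) on the rRNA strand and 503 (31.8%, 29.5 to 34.1%) on the facing strand. These intervals cover counting error only and treat the bases of a site as independent, which they are not. The order of the strands in each rRNA was kept under the alternatives tried for these shares. RefSeq gene ends left these shares identical, so they could not change the order. Removing narrower sites took away the only same-strand site of the 12S rRNA, so it could not reverse the order there.

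The 15 sites held every minus-strand site of the mitochondrial genome, in 2 genes that make up 15.6% of its 16299 nt. For comparison, 6791 of 10833 bases of the plus-strand mRNAs (62.7%) lay in a same-strand site and 0 lay opposite a site. Thus the mRNAs with the sequence of the plus strand had sites on their own strand alone, whereas the rRNAs had them on both.

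**Figure D1:**
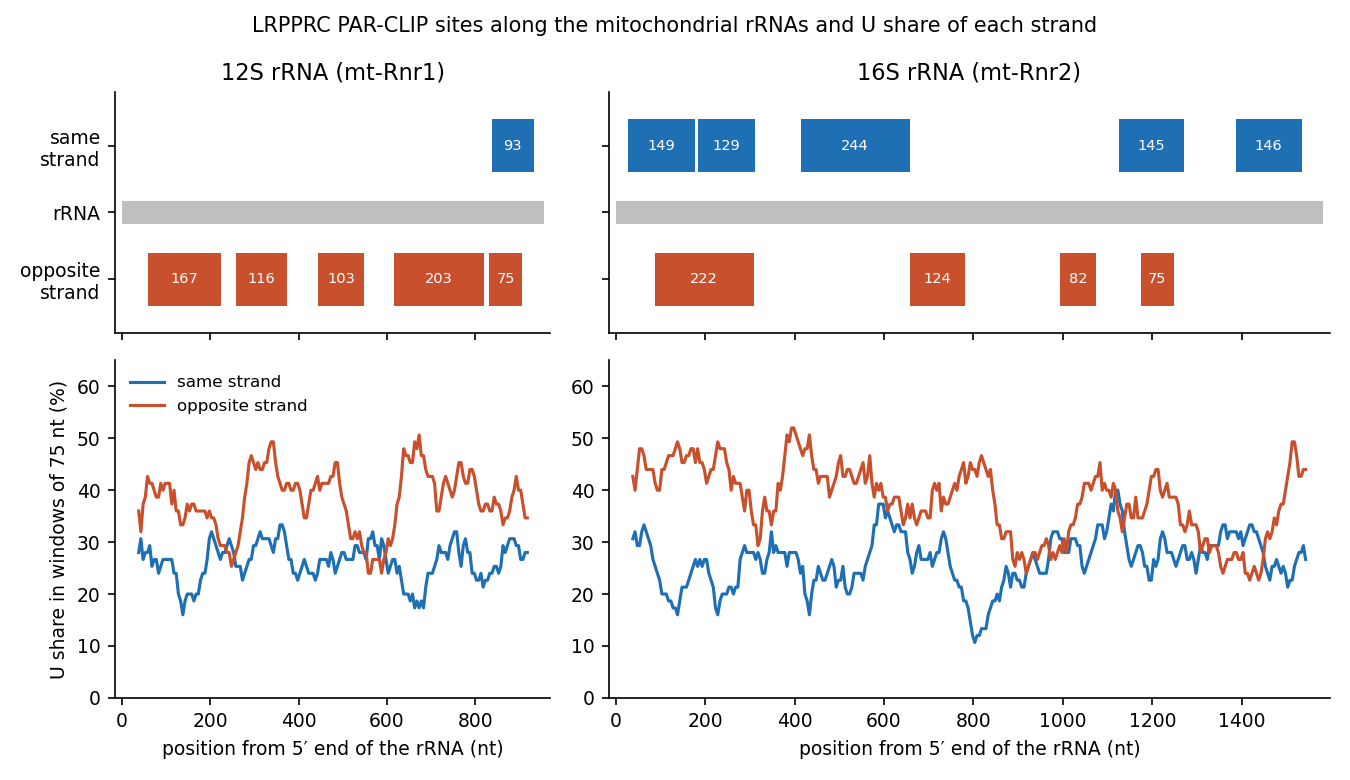
Positions of the 15 sites along mt-Rnr1 and mt-Rnr2 (upper panels, horizontal axis in nt from the 5′ end of the rRNA, number in each box the width of the site in nt) and the U share of each strand in windows of 75 nt (lower panels, in percent). The 12S rRNA has a single same-strand site, 93 nt wide and near its 3′ end, and 5 opposite-strand sites along its length, while the 16S rRNA has 5 same-strand and 4 opposite-strand sites.

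Along the 12S rRNA, the opposite-strand sites were spread from end to end. The first, at 127-293 (167 nt, rRNA positions 58 to 224), had its midpoint at 14.7% of the length of the rRNA. The next lay at 327-442 (116 nt, midpoint at 33.0%) and at 514-616 (103 nt, midpoint at 51.9%). These were followed by 686-888, the widest of this rRNA (203 nt, midpoint at 75.1%), and by 901-975 (75 nt, midpoint at 90.9%). The stretches of the facing strand without a site were short, from 12 to 71 nt. When mt-Rnr1 was divided into 5 equal stretches, sites covered 70.2, 78.0, 53.9, 77.5 and 68.1% of the facing strand, from the 5′ to the 3′ end.

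On the 12S rRNA itself, the first 838 nt held no site, and the same-strand site at 908-1000 covered 48.7% of the last stretch. It ended 24 nt before the 3′ end of the rRNA. This was also the first plus-strand site of the mitochondrial genome, counting from position 1, since mt-Tf (chrM:1-68), the tRNA for phenylalanine that precedes the 12S rRNA, held no site on either strand. The uncovered 838 nt held 219 U (26.1%), and U made up 26.4% of both rRNAs together. Why no site was called there was not tested.

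Along the 16S rRNA, the same-strand sites lay in both outer parts and left a wide gap between them. The first began 27 nt after the 5′ end, and those at 1121-1269 (149 nt), 1276-1404 (129 nt) and 1507-1750 (244 nt, the widest of the 15) together filled 88.0% of the first and 69.4% of the second stretch when the rRNA was divided into 5. A gap of 467 nt with 120 U followed, so the middle stretch was covered to 7.59%. Same-strand sites, among them that at 2218-2362 (145 nt), covered 44.8% of the next and 47.2% of the last stretch.

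On the strand facing the 16S rRNA, coverage did not follow the rRNA strand. The site at 1180-1401 (222 nt, the widest on this strand) put 70.3% of the first stretch in a site, and the sites at 1750-1873 (124 nt), 2086-2167 (82 nt) and 2267-2341 (75 nt) covered 39.2% of the middle and 49.5% of the next stretch. The second and the last stretch had no opposite-strand site, although they held 69.4% and 47.2% coverage on the rRNA strand. The longest stretches of the facing strand without a site were 348 nt (1402-1749), where U made up 41.7% of bases, and the final 334 nt.

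**Figure D2:**
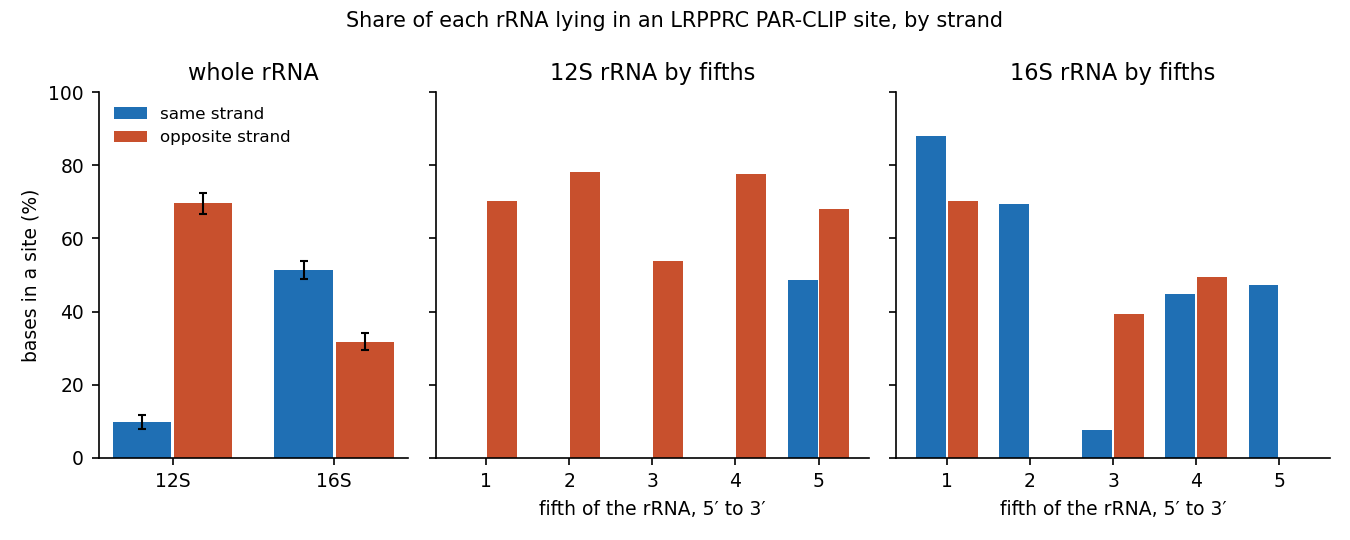
Share of bases lying in a site (vertical axes, percent) on the same strand and on the opposite strand, for each rRNA whole (left, error bars are 95% Wilson intervals that cover counting error only) and in 5 equal stretches from the 5′ to the 3′ end. In the 12S rRNA same-strand coverage is 0 in all stretches but the last (48.7%), whereas in the 16S rRNA it is highest in the first stretch (88.0%).

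The tRNAs that follow each rRNA in the precursor lay in site-free stretches. The valine tRNA mt-Tv (chrM:1025-1093, 69 nt), between the rRNAs, fell within 120 nt of the plus strand without a site, which also took in the last 24 nt of the 12S and the first 27 nt of the 16S rRNA. The leucine tRNA mt-Tl1 (chrM:2676-2750, 75 nt) fell within 139 nt without a site, from 49 nt before the end of the 16S rRNA to 15 nt into mt-Nd1, the mRNA of a complex I subunit. Neither tRNA had a site on the minus strand, and all 15 sites lay wholly inside an rRNA gene. In mt-Nd1 (chrM:2751-3707), 3 plus-strand sites covered 741 bases, and no minus-strand site faced it. The minus-strand sites spanned positions 127 to 2341, so they began near the 5′ end of the 12S rRNA and stopped before the 3′ end of the 16S rRNA.

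The facing of the strands was then measured base by base. Of the 2537 positions of both rRNAs, 360 (14.2%) lay in sites on both strands, 546 (21.5%) on the rRNA strand alone, 807 (31.8%) on the opposite strand alone and 824 (32.5%) on neither. In mt-Rnr1 the opposite strand alone was the most frequent class (596 positions, 62.4%), followed by neither (266, 27.9%), both (68, 7.12%) and the rRNA strand alone (25, 2.62%). In mt-Rnr2 neither (558, 35.3%) and the rRNA strand alone (521, 32.9%) were followed by both (292, 18.5%) and the opposite strand alone (211, 13.3%).

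**Figure D3:**
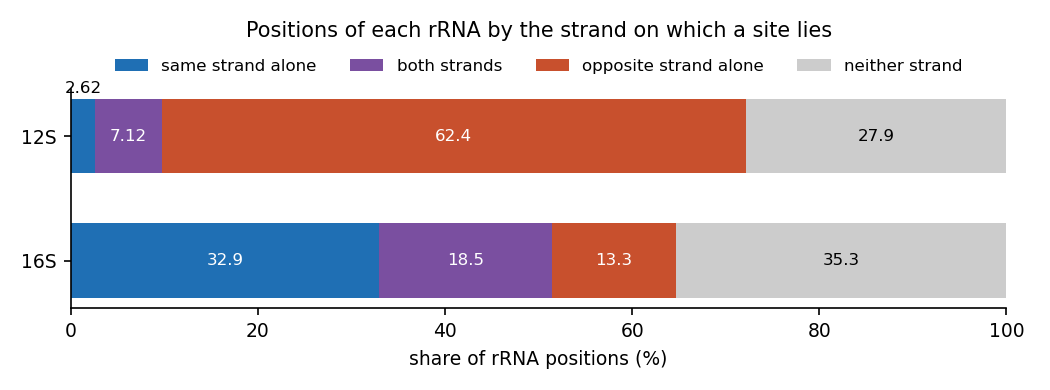
Share of the positions of each rRNA (horizontal axis, percent) that lay in sites on the same strand alone, on both strands, on the opposite strand alone or on neither. The opposite strand alone takes 62.4% of the 12S rRNA and 13.3% of the 16S rRNA.

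Among same-strand sites, 5 of 6 (83.3%, 95% Wilson interval 43.6 to 97.0%) faced a site, and 39.7% of their bases did (36.6 to 43.0%). Over all positions of both rRNAs, 46.0% lay in an opposite-strand site. Among opposite-strand sites, 4 of 9 (44.4%, 18.9 to 73.3%) faced a site, with 30.8% of their bases (28.3 to 33.6%). Over all positions, 35.7% lay in a same-strand site. Pooled over both rRNAs, both facing shares of bases were below the matching share over all positions. Within each rRNA taken alone, both were above it, so the pooled order did not hold there. In mt-Rnr1, 68 of 93 same-strand site bases (73.1%) faced a site, against 69.5% of all its positions. In mt-Rnr2, 292 of 813 did, against 503 of all 1582 positions. The intervals cover counting error only and treat sites, or the bases of a site, as independent. The values by sites and by bases are different measures, since a site counted as facing with as little as 1 base.

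The facing pairs overlapped to different degrees. The 12S pair shared 68 nt, which was 73.1% of the plus-strand site and 90.7% of the minus-strand site. Their lower-numbered ends differed by 7 nt. At the 5′ end of the 16S rRNA, the minus-strand site at 1180-1401 shared 90 nt with 1121-1269 and 126 nt with 1276-1404. Together this was 97.3% of its 222 nt, while 97.7% of the site at 1276-1404 was faced. The site at 2267-2341 had all of its 75 nt within the span of 2218-2362, of which it faced 51.7%.

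The remaining pair touched at position 1750 only, the 3′ end of both the plus-strand site at 1507-1750 and the minus-strand site at 1750-1873. Unfaced sites lay at various distances from the other strand. Of the minus-strand sites, 127-293 was 614 nt, 327-442 was 465 nt and 514-616 was 291 nt from a plus-strand site. The site at 686-888 was 19 nt and that at 2086-2167 was 50 nt from one.

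Because the caller needs T-to-C changes, base content was taken from the strand on which a site lay. The share of U was 26.4% on the rRNA strand and 38.1% on the facing strand over both rRNAs, since the facing strand has U wherever the rRNA has A. Accordingly each of the 6 same-strand sites had less U (24.0 to 28.0%, median 27.2%) than each of the 9 opposite-strand sites (34.7 to 45.3%, median 39.8%). The 33 mitochondrial sites elsewhere ranged from 23.8 to 40.3% (median 29.2%). The lowest same-strand value was that of 1276-1404, in which a run of 23 nt had no U, and the highest that of 908-1000.

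The U share of site bases was then set against that of the bases of the same strand outside the sites. On the rRNA strand, U made up 26.6% of site bases (23.8 to 29.6%) and 26.2% of the others (24.2 to 28.4%), a difference of 0.359 percentage points. The 95% interval of this difference by the method of Newcombe, −3.17 to 3.98 points, included 0. On the facing strand, U made up 40.4% of site bases (37.7 to 43.3%) and 36.1% of the others (33.6 to 38.6%), a difference of 4.39 points with an interval of 0.596 to 8.17. That interval too treats bases as independent. Without the widest opposite-strand site, 1180-1401, the difference was 2.39 points. The difference was 7.41 points opposite the 12S and 3.98 points opposite the 16S rRNA. The difference between the strands was itself not tested.

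Sites took up 472 of the 966 U on the facing strand (48.9%) and 241 of the 669 U on the rRNA strand (36.0%). Of the other bases on the rRNA strand, A was at 40.2% in sites and 36.9% outside them, C at 17.9 and 20.2%, and G at 15.3 and 16.6%. The A shares were highest in the 16S sites near the 5′ end, with 47.0% in 1121-1269 and 43.4% in 1276-1404. Positions in sites on both strands were 42.8% A and those in neither were 34.5% A, read on the rRNA strand.

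By their medians, the rRNA sites held less C than the mitochondrial sites elsewhere, each read on its own strand. C ranged from 12.8 to 21.9% (median 18.3%) in same-strand sites and from 9.33 to 19.2% (median 12.6%) in opposite-strand sites, against 20.3 to 32.9% (median 26.8%) in the other 33. G had medians of 14.9, 20.0 and 10.6% in the same order. Over all bases of both rRNAs, C made up 19.4% on the rRNA strand and 16.2% on the facing strand, so the sequence as a whole was also below the median of the other sites.

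**Figure D4:**
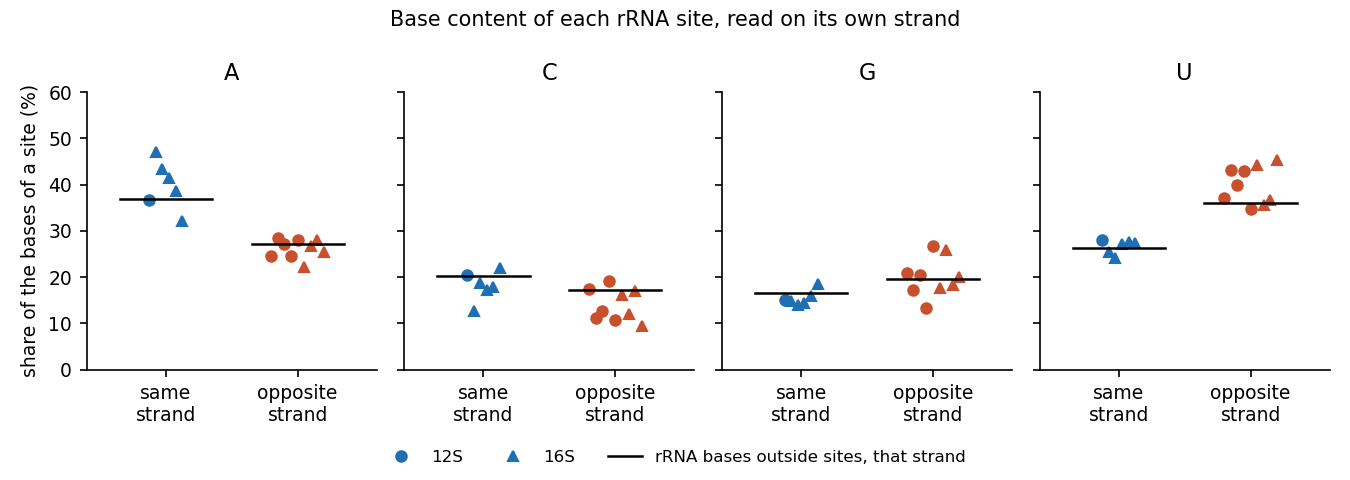
Share of A, C, G and U (vertical axes, percent) in each of the 15 sites, read on the strand of the site, with circles for 12S and triangles for 16S. Black lines give the share in rRNA bases of that strand outside sites. U separates the strands, with 24.0 to 28.0% in same-strand and 34.7 to 45.3% in opposite-strand sites.

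The longest runs of U were short on either strand. They reached 4 nt in the same-strand sites, in mt-Rnr2, and 6 nt in the opposite-strand site at 2267-2341. The longest stretches shared exactly between any of the 15 sites, each read on its own strand, were 11 nt. These were UUGGGUUAAUC, in 327-442 opposite mt-Rnr1 and in 1507-1750 of mt-Rnr2, and UUAUUUAUAGU, in 327-442 and in 1750-1873 opposite mt-Rnr2.

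In width, the same-strand sites ranged from 93 to 244 nt (median 145.5) and the opposite-strand sites from 75 to 222 nt (median 116). These ranges overlapped over most of their length. The 33 other mitochondrial sites were 58 to 688 nt wide (median 176), so no rRNA site was as wide as the widest of them. Exactly 75 nt was the width of 2 opposite-strand sites, 901-975 and 2267-2341, of 0 of the 33 other mitochondrial sites and of 128 of the 504 sites outside the mitochondrial genome (25.4%).

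Several parts of the rRNAs have known roles in the ribosome and are conserved widely enough to be found by their letters. These parts were chosen after the sites had been seen, and each searched word matched the mitochondrial genome in 1 place, on the plus strand. The long helix near the 3′ end of the small-subunit rRNA lines the decoding centre, where codon and anticodon meet. The word of its 5′ strand, GCCCGUCAC, stood at 12S positions 839 to 847, at the very start of the same-strand site at 908-1000, and also faced the minus-strand site at 901-975. The word of its 3′ strand, CGUAACAAG, stood at positions 915 to 923 in the same plus-strand site and outside minus-strand sites by 8 nt. Thus the only same-strand site of the 12S rRNA held both strands of the decoding helix. A conserved loop of the 5′ domain that also takes part in decoding, GCCAGCCAC at 12S positions 239 to 247, lay in no site and was 591 nt from the nearest on its strand.

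In the 16S rRNA, the peptidyl transferase centre is where peptide bonds are made. The only word searched for it, GGAUAACAG at positions 1281 to 1289, lay in no site. This word stood 11 nt after the end of the plus-strand site at 2218-2362 and 32 nt from a minus-strand site. Other stretches of the centre were not searched, so whether they lay in sites was not determined. A word inside a site is a description of position and does not place a crosslink at that word.

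Predicted folding differed little between bases inside and outside the sites. The mean probability of being unpaired was predicted with each rRNA folded separately, in windows of 150 nt. It was 0.543 in same-strand site bases and 0.549 in the other rRNA bases. Inside minus outside, the difference was −0.0624 in mt-Rnr1 and 0.0216 in mt-Rnr2, so the rRNAs differed in direction. By site it ranged from 0.479 to 0.597, in 1276-1404, on the rRNA strand. On the facing strand the means were 0.460 inside and 0.453 outside. There too the rRNAs differed in direction, with a difference of −0.0255 opposite mt-Rnr1 and 0.00513 opposite mt-Rnr2. Proteins of the ribosome and contacts between distant parts of an rRNA do not enter such predictions.

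Copies of mitochondrial DNA in nuclear chromosomes can take or give reads, so each site was compared with the nuclear genome. A match, identical at 90% or more of its bases and spanning 90% or more of the site, was found for 3 of the 15 rRNA sites, 1 of 6 same-strand and 2 of 9 opposite-strand sites. Of the other 33 mitochondrial sites, 23 (69.7%) had such a match. The sites at 1507-1750 and 1750-1873, which touch each other, matched adjoining parts of chromosome 10, at chr10:96077656-96077897 with 97.5% identity and at chr10:96077533-96077656 with 97.6%. Both places lie in AC115970.1, annotated as a unitary pseudogene.

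The opposite-strand site at 2086-2167 matched chr6:79818268-79818347, in Gm20594, over 97.6% of its width with 98.8% identity. The annotated strand of AC115970.1 has the sequence of the same-strand site at 1507-1750, and lies opposite to that of 1750-1873. Gm20594 likewise lies opposite to the sequence of its matching site. None of these nuclear places held a listed site. Whether the masking of nuclear copies took in these places, and their part in the sites at the rRNAs, was not tested.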

How the data were processed

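PAR-CLIP was carried out on MEFs labelled as induced for LRPPRC-FLAG, 1 experimental and 1 control sample. Per the methods, duplicate reads were collapsed by their random bases, adapters were trimmed (cutadapt 1.10), and reads were aligned with Bowtie 1.12, at 1 place per read, to mm10 with its nuclear copies of mitochondrial DNA masked. The authors then called crosslinked regions with BMix, strand by strand. The deposited list gave chromosome, start, end and strand (0-based starts). The deposited score was 0 in all 552 lines, as was the name, so sites could not be filtered by score or coverage. A read that fits several places may have been put at any of them, and a region without U cannot be called.

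Starts were converted to 1-based positions, and sites overlapping the GENCODE M21 bodies of mt-Rnr1 or mt-Rnr2 by at least 1 nt were kept, strands apart. Shares have 95% Wilson intervals from SciPy 1.17.1. Unpaired probabilities were predicted with RNAplfold 2.7.2 (windows of 150 nt, pairs up to 100 nt apart), and nuclear matches were found with blastn 2.17.0 on the chromosomes alone. Python 3.11.15, NumPy 2.4.6 and matplotlib 3.10.9 were used. Covered bases, facing bases and U counts were tested on simulated data, 100 random site lists, against direct counting, and 0 of 684 values differed. The genes named were the rRNAs, the tRNAs beside them, mt-Nd1 and the annotated gene at each nuclear match. The rRNAs, the gene list and the quantities were chosen with earlier results of these data known. No comparison between groups was made, since the control sites were not analysed here. Sequences were printed for facing sites and for sites near an rRNA end, of which 1 is not reported here.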

Additional observations from a re-analysis of the deposited data

How the results depend on the processing

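With 1 library and no read depth in the list, no spread between libraries and no strength of a site is given, and leaving out a replicate was not possible. No paired analysis was possible because the only site list analysed came from 1 sample. Of 60 alternative values, 37 stayed the same, 22 moved and 1 changed sign. A value stayed the same if it fell inside the main interval. For counts and for the width and unpaired differences, it stayed the same if it differed by at most 1.5 times. RefSeq gene ends gave values identical to the main ones, so they were no check of the results. Starts read as 1-based moved none of the results they were applied to.

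Dropping sites narrower than the mitochondrial median (147.5 nt) left 5 of the 15 rRNA sites, 2 same-strand and 3 opposite-strand. By this construction coverage became 0% (same strand) and 38.7% (opposite) for the 12S rRNA, and 24.8% and 14.0% for the 16S rRNA, and 15.2% of opposite-strand site bases faced a site. The unpaired probability in same-strand sites minus that elsewhere changed from −0.00557 to 0.0301. Leaving out the widest site of a strand, which removes bases by construction, gave 0% and 48.3% for the 12S and 36.0% and 17.8% for the 16S rRNA, and facing became 15.2% without 1180-1401. In windows of 50 nt, which count a window from a single base, coverage was 15% and 85% for the 12S and 65.6% and 43.8% for the 16S rRNA. Joining sites under 50 nt apart gave 74.2% for the strand opposite the 12S rRNA. By sites in place of bases, facing was 44.4%.

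The unpaired difference was −0.000273 with windows of 80 nt, −0.0318 with each rRNA folded whole and −0.0247 for U alone, and the cause was not tested. At 80% identity over 80% of the site, 7 rRNA sites had a nuclear match.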
